A study of Mus musculus with 54 samples.

Results

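Of the 111741 accessible regions (peaks) on the autosomes of mouse embryonic stem (ES) cells, 630 stood alone, with more than 100 kb between their edges and the nearest other peak on both sides. They made up 0.564% of the autosomal peaks of a list that held 113737 peaks in all. The members were chosen by the measured positions of the peaks themselves, and the outermost peak at each end of a chromosome was left out because it had a neighbour on 1 side only. The other 111111 autosomal peaks served as the comparison.

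The list came from ATAC-seq, in which the Tn5 transposase cuts and tags open DNA, in ZHBTc4 cells, a mouse ES cell line in which doxycycline (dox) represses the endogenous Pou5f1 gene encoding OCT4. All groups were given dox at 1 µg/ml and expressed OCT4 from a lentiviral construct as mCherry-OCT4-AID, which the cell destroys through the Tir1 receptor once the auxin indole-3-acetic acid (IAA, 500 nM) is given, together with YPet-MD, a fluorescent reporter of the cell cycle. In all, 54 samples were profiled. For 22 of them, cells had 26 hr of dox with or without IAA for 2 hr and were sorted by cell cycle into early G1, late G1, S and SG2 phase, with 3 replicates per treatment and 2 in SG2. A washout series of 16 samples had 31 hr of dox, with or without 2.5 hr of IAA followed by 4.5 hr of washout, in the same phases with 2 replicates. The time course of 16 samples used unsorted cells with 34 hr of dox, either without IAA or after 30 min, 1, 2, 3, 4, 6 or 10 hr of it, in 2 replicates each. The list merges peaks over these experiments, so that no value belongs to a sample, treatments were not compared here, there are no replicates of a peak and the depth behind a peak is unknown.

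Accessible DNA in mammalian cells is concentrated at gene promoters, many of which lie in CpG islands, and at distal elements such as enhancers and binding sites of CTCF, the zinc finger protein that anchors chromatin loops. Such elements tend to cluster around active genes. Long stretches with few elements are found in gene deserts, inside very long genes, many of them neuronal, and in arrays of receptor genes that are silent in ES cells, where the sequence is rich in transposon-derived repeats.

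Isolated peaks were of 2 broad kinds. Of the 630, 90 had their centre within 1 kb of a transcription start site (TSS) of any annotated gene and are termed promoter peaks, and 540 lay further away and are termed distal. The 120 bases around the centre of a few members of each kind show their base composition. These are among the 10 promoter peaks of protein-coding genes and the 5 distal peaks ranked by the smaller of their 2 gaps, those that overlap an annotated exon in this window being left out. They are written from the plus strand of GRCm38, with CpG dinucleotides in capitals and named after the nearest protein-coding gene. The promoter stretches came first.
Pcdh9, chr14:93890962-93891081: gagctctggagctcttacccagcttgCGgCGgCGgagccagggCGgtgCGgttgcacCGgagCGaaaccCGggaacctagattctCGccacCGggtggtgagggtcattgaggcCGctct
Akap11, chr14:78536835-78536954: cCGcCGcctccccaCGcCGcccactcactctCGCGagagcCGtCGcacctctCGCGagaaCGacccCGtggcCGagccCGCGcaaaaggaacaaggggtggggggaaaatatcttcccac
Ttc27, chr17:74717591-74717710: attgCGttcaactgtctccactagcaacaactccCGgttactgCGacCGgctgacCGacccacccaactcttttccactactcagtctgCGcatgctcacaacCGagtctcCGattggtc
The stretches of distal peaks followed.
Scgb1b29, chr7:32616437-32616556: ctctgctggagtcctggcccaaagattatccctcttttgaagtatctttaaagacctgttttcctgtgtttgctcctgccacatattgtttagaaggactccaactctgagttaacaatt
Pcdh9, chr14:94797014-94797133: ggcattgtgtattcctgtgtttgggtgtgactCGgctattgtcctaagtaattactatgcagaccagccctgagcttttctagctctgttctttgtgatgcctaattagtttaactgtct
Skint6, chr4:113428477-113428596: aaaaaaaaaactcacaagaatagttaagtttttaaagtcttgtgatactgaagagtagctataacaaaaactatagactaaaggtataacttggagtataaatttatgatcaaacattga
Tmprss15, chr16:79661491-79661610: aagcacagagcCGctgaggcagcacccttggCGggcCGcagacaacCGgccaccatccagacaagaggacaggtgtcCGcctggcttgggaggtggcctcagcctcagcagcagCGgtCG
Cadm2, chr16:68073668-68073787: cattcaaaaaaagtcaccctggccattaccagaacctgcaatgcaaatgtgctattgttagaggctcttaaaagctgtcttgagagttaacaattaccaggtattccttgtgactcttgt
The stretch near Akap11 held 15 CpG dinucleotides, that at the Pcdh9 promoter held 11 and that near Ttc27 held 8. Of the 5 distal stretches, that near Tmprss15 held 7 CpG, about as many as the Ttc27 stretch, 1 held a lone CpG and the other 3 held none.

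A few isolated distal peaks carried the recognition sequence of CTCF, and the matches without any mismatch are shown to make clear what was counted. There were 8 such peaks, 1.48% of isolated distal peaks against 3.66% of other distal peaks, and 7 of them are printed. Each line gives the match in capitals with 20 bases on either side, on the strand that holds the match and named after the nearest protein-coding gene.
Reep3, chr10:65701334-65701385, strand -: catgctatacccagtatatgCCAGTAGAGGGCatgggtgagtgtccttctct
Pcdh20, chr14:90433313-90433364, strand +: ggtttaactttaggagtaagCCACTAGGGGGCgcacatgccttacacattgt
Cstf2t, chr19:31342343-31342394, strand +: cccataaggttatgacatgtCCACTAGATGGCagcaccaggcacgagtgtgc
Trpm3, chr19:22337576-22337627, strand +: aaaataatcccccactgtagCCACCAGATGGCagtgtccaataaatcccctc
Gm10662, chr7:23163679-23163730, strand -: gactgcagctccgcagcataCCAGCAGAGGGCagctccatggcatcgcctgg
Dab1, chr4:104209267-104209318, strand +: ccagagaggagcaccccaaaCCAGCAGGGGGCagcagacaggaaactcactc
Spaca1, chr4:34231466-34231517, strand -: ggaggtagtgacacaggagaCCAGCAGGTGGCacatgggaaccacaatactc
The peaks near Cstf2t and Dab1 lay in introns of Prkg1 and Dab1, and that near Trpm3 in an intron of the gene itself. The peak near Reep3 had no other peak for 303621 bp on one side and 345203 bp on the other, in a stretch 1333371 bp from the nearest protein-coding TSS.

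To place the rule among all peaks, the smaller of the 2 gaps beside each autosomal peak was examined. Its median was 4751 bp and its 99th percentile 80267 bp. Among isolated peaks the median was 136230 bp and the 90th percentile 229762 bp, with 241 peaks beyond 150 kb, 95 beyond 200 kb, 27 beyond 300 kb and 5 beyond 500 kb. The larger gap had a median of 215246 bp and reached 3092139 bp beside a peak on chromosome 7. The surroundings of the isolated peaks up to the next peak on each side joined into 460 separate stretches of 229.1 Mb in all, which is 9.56% of the autosomal sequence. Some members had neighbours that were isolated as well. There were 124 runs of at least 2 consecutive isolated peaks, which held 294 peaks, while the other 336 had no isolated peak next to them.

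**Figure D1:**
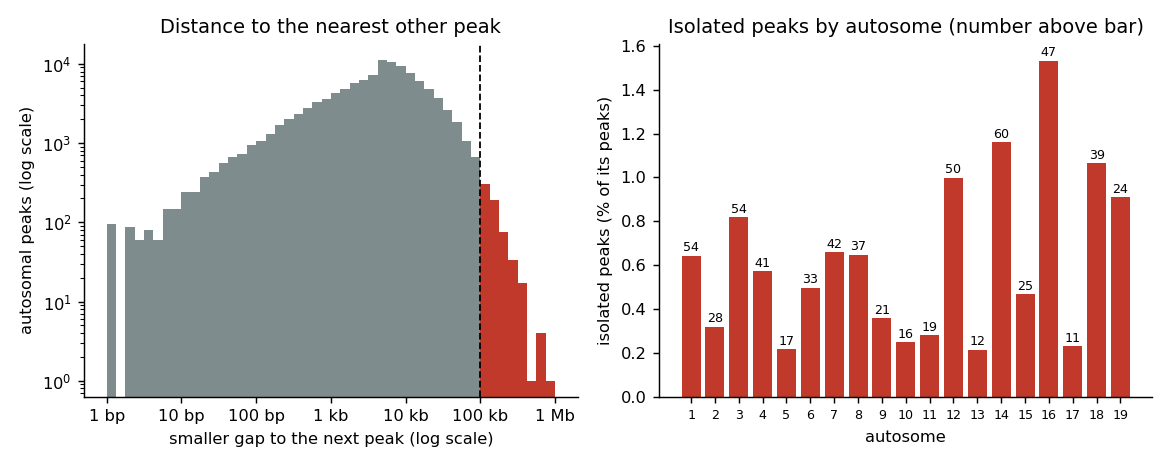
Left, number of autosomal peaks by the smaller gap to the next peak, both axes on a log scale, with the dashed line at 100 kb and isolated peaks in red. Right, isolated peaks as a percentage of the peaks of each autosome, with their number above each bar. The median gap over all peaks was 4751 bp, and isolated peaks ranged from 0.214% of the peaks on chromosome 13 to 1.53% on chromosome 16.

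The share of isolated peaks differed widely between autosomes. Chromosome 16 had 47 of 3067 peaks (1.53%), chromosome 14 had 60 of 5172 (1.16%), chromosome 18 had 39 of 3659 (1.07%) and chromosome 12 had 50 of 5006 (0.999%). At the other end, chromosome 13 had 12 of 5596 (0.214%), chromosome 5 had 17 of 7881 (0.216%) and chromosome 17 had 11 of 4771 (0.231%). In windows of 5 Mb, the highest numbers were 11 isolated peaks at 25 to 30 Mb of chromosome 18, of 61 peaks there, and 11 at 90 to 95 Mb of chromosome 14, of only 22 peaks.

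Peaks on either side of the limit are given as a description. The nearest inside were a promoter peak of Cyyr1 on chromosome 16 with a smaller gap of 100333 bp, an intronic peak of chromosome 7 near Olfr677 with 100400 bp and an intronic peak near Kcnma1 with 100407 bp. Nearest outside were a promoter peak near Htt with 99890 bp, an intergenic peak near Epha7 with 99878 bp and a promoter peak near Snx13 with 99873 bp. The 122 peaks with a smaller gap of 100 to 110 kb held 16.4% promoters, a median width of 354 bp and 33.2% repeat bases, and the 213 peaks with 90 to 100 kb held 14.6% promoters, a median width of 335 bp and 31.7% repeat bases.

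Isolated peaks lay at promoters less often and between genes more often than other peaks. Of the 630 centres, 377 were intergenic (59.8%, Wilson 95% confidence interval 56.0 to 63.6%), 151 were in introns (24.0%, 20.8 to 27.4%), 90 were promoter peaks (14.3%, 11.8 to 17.2%) and 12 were in exons (1.90%, 1.09 to 3.30%). Of all other autosomal peaks, 39.0% were intergenic, 35.2% intronic, 20.9% promoters and 4.90% exonic. These intervals cover counting error only, and a rule that asks for few peaks nearby also favours gene-poor places.

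Peaks are not replicates of each other, so the 19 autosomes were used as the units of the tests, and P-values come from two-sided permutation tests that flip the signs of the differences per autosome, adjusted over 26 such tests by the Benjamini-Hochberg method with a threshold of 0.05. The promoter share averaged 13.5 ± 7.42% in isolated and 21.1 ± 3.35% in other peaks (SD over 19 autosomes), a difference of -7.55 ± 8.95 percentage points, with the lower share in isolated peaks on 15 autosomes (adjusted permutation p = 0.00416). Chromosomes 1, 12, 14 and 17 went the other way. With an isolation distance of 150 kb the difference was -6.48 points and no longer passed (adjusted permutation p = 0.147). The promoters of protein-coding genes alone gave 7.87 ± 5.70% against 17.2 ± 3.46%, lower on 18 of 19 autosomes (adjusted permutation p = 0.000409). The rule favours lower promoter shares, since most protein-coding genes have a peak at a TSS and gene-rich places are therefore left out. The p-values of the promoter shares thus carry no support beyond the rule.

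Intergenic centres rose from 38.8 ± 4.57% of other peaks to 59.0 ± 6.74% of isolated peaks, higher on 19 of 19 autosomes (adjusted permutation p = 5.2e-05). Much of this was also seen in peaks just below the limit, of which 47.4% at a smaller gap of 25 to 50 kb and 55.3% at 50 to 100 kb were intergenic, against 58.4% at 100 to 150 kb. As the rule favours gene-poor places, the p-value of the intergenic share carries no support beyond it. Introns held 25.2 ± 8.65% of isolated and 35.3 ± 2.14% of other peaks (adjusted permutation p = 0.000347). The rule favours lower intron and exon shares too, since places within 100 kb of any other peak at a TSS are left out. The p-values of the intron and exon shares thus carry no support beyond the rule. The exon share, 2.31 ± 4.10% against 4.89 ± 0.902%, also passed (adjusted permutation p = 0.0346), but it rested on 12 peaks and lost its call when any of 12 different autosomes was left out.

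**Figure D2:**
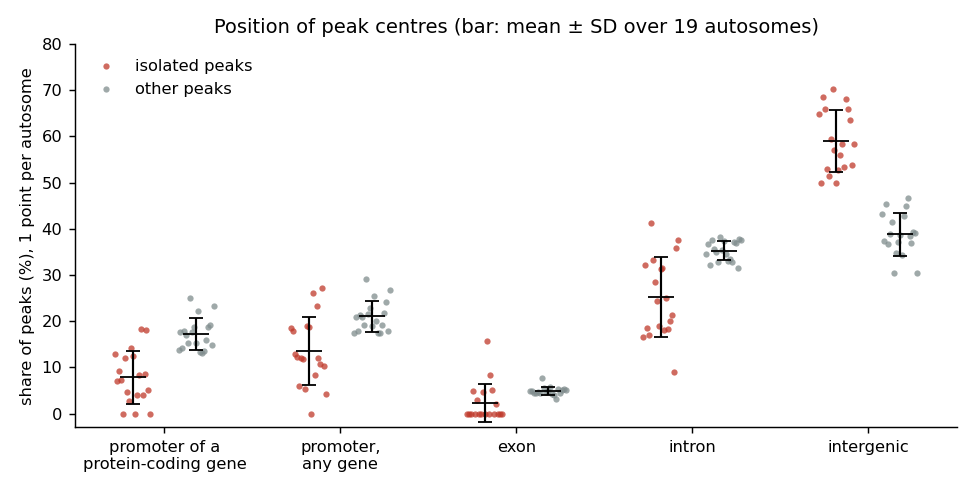
Share of peaks (%) by position of the centre, with 1 point per autosome for isolated (red) and other (grey) peaks. Black bars give the mean and SD over 19 autosomes. Intergenic shares of isolated peaks (mean 59.0%) lay above those of other peaks (mean 38.8%), and promoter shares lay lower (13.5% against 21.1%).

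At promoters of protein-coding genes, an isolated peak usually belonged to a gene with few or no protein-coding neighbours. Of the 52 such peaks, each at a different gene, 31 (59.6%, Wilson 95% interval 46.1 to 71.8%) had no other protein-coding TSS within 100 kb of their edges, 13 had 1 other gene, 4 had 2 and 4 had between 3 and 6. Of the other 18925 peaks at protein-coding promoters, 13.5% had no other gene in this range. The rule itself favoured this, since a gene with a peak at its TSS cannot lie within 100 kb of an isolated peak and most protein-coding genes have such a peak, so the numbers are a description with no test. On the 3 autosomes that held at least 5 of these peaks, the number of other genes averaged 0.835 ± 0.732 beside isolated and 3.49 ± 0.542 beside other promoter peaks. Over all 16 autosomes with at least 1 such peak, an alternative added after the data had been seen, the difference was -3.48 ± 1.24 genes. The peak with the most company, at the TSS of Usp40, a ubiquitin protease gene, had 6 other genes in range, of which 5 were Ugt1a genes that encode glucuronosyltransferases.

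The genes were also long. Their median length was 155146 bp against 24928 bp for genes with another promoter peak, and 33 of 52 (63.5%) exceeded 100 kb against 15.1%. The range ran from 2352 bp for Pdha2, the intronless testis gene of a pyruvate dehydrogenase subunit, to 2270724 bp for Ptprd, a receptor phosphatase of synapses. Over 3 autosomes the difference in log10 length was 0.36 ± 0.49, and over the 16 autosomes of that alternative it was 0.64 ± 0.38. These are also given with no test, since length moved with the lack of neighbours that the rule favours. Genes over 100 kb were 25 of the 31 without a protein-coding neighbour and 8 of the 21 with one.

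**Figure D3:**
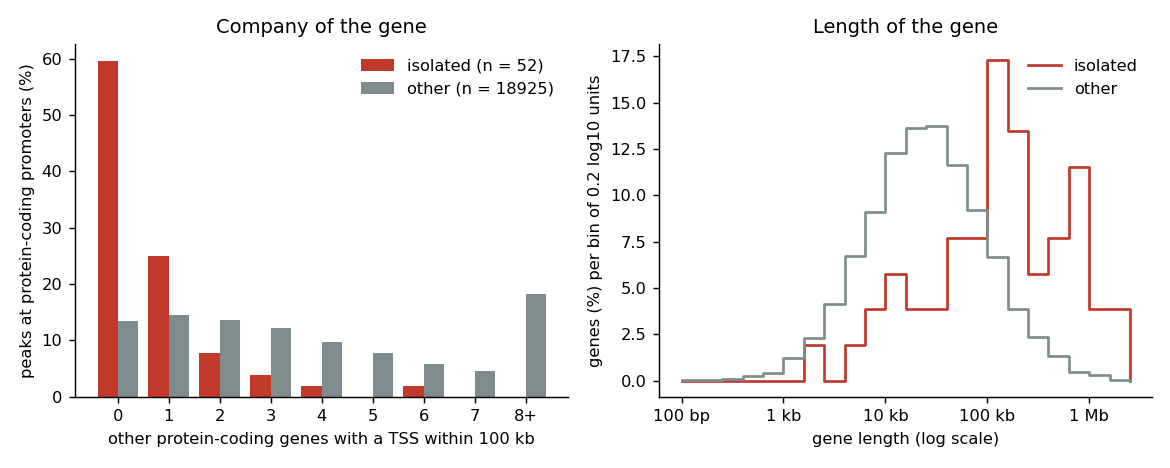
Left, percentage of peaks at protein-coding promoters by the number of other protein-coding genes with a TSS within 100 kb, for 52 isolated (red) and 18925 other peaks (grey). Right, length of these genes on a log scale, as the percentage of genes per bin of 0.2 log10 units. No other gene was in range for 59.6% of isolated and 13.5% of other peaks, and the median lengths were 155146 and 24928 bp.

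The 10 most isolated promoters of protein-coding genes give a view of this class. Klhl1, a kelch family gene of the brain, had a peak of 1025 bp on chromosome 14 with 1188837 bp free of peaks upstream and 683574 bp downstream, so that the whole gene of 416367 bp held no other peak. Pcdh9, a protocadherin of neuronal adhesion on the same chromosome, had 905017 bp free upstream and 356930 bp downstream. Both neighbouring stretches therefore exceeded the typical gap between peaks by far.

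Chrm2, a muscarinic acetylcholine receptor, and Prkd1, a protein kinase, had smaller gaps of 342787 and 293743 bp and no other peak in genes of 140331 and 307868 bp. For Ptprd the smaller gap was 214571 bp and for Pdha2 it was 210005 bp. Next came Aff3, a factor of transcription elongation, with 195421 bp, Akap11, an anchoring protein of protein kinase A, with 186926 bp, Slc8a1, the sodium and calcium exchanger of the heart, with 186830 bp, and Ttc27 with 180530 bp. Of these 10 genes, 8 had no protein-coding neighbour within 100 kb, while Akap11 had Dgkh and Ttc27 had Birc6.

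An isolated promoter did not mean a gene without other peaks. Of the 52 genes, 30 held no other peak, and among the 33 genes over 100 kb this was so for 11. Ptprd held 46 other peaks, Lsamp 35, Rbfox1 22, Opcml 20 and Cntnap5a 17, all of them long neuronal genes, and the remaining genes held 7 or fewer. The larger gap lay downstream of the TSS for 28 of 52. Some of these peaks lay at a TSS inside the annotated gene, such as those of Opcml, Lsamp and Rbfox1, where the upstream gap also ran through the gene.

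The width and composition of these promoters are described next. Their median width was 1077 bp and that of other peaks at protein-coding promoters 1068 bp, given without a test because widths derive from the starts and ends that the rule used. The 5 widest isolated peaks were all promoters. They were those of Tll1, a metalloprotease, with 2681 bp, Eya4, a transcriptional coactivator, with 2459 bp, Creb5 with 2152 bp, the netrin receptor gene Neo1 with 2009 bp and Aff3 with 1965 bp. Of the 52, 30 (57.7%) were rich in CpG, with a GC content of at least 50% and a ratio of observed to expected CpG of at least 0.6, and so were 54.6% of other peaks at protein-coding promoters.

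The 38 isolated peaks at TSSs of other genes only were a different set. The nearest TSS belonged to a processed pseudogene in 16 cases and to a lincRNA in 9. Their median width was 393 bp, their mean GC content 53.8% and their mean repeat share 20.3%, against 507 bp, 50.4% and 16.4% for other peaks of this kind. Of the 38, 8 were CpG-rich (21.1%), as were 11.6% of 4294 other peaks of this kind, and all 8 lay between 18 and 24 Mb of chromosome 12, a stretch singled out after its values were seen. Their GC content ranged from 65.8 to 78.1%. The central 50 bases of 7 of these 8 occurred more than once on the autosomes. The positions of these 7 within this duplicated sequence may be uncertain, which was not tested.

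On the 8 autosomes that held at least 5 isolated promoter peaks, 64 of the 90, none of the 3 differences from other promoter peaks passed the test. The GC content averaged 56.0 ± 4.59% against 56.0 ± 0.843% (adjusted exact permutation p = 0.977), the CpG ratio 0.489 ± 0.150 against 0.531 ± 0.0254 (adjusted exact permutation p = 0.591) and the repeat share 11.4 ± 3.48% against 10.5 ± 0.771% (adjusted exact permutation p = 0.591). The spread between autosomes was wide enough for differences of several percentage points in GC to go unseen.

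Distal isolated peaks lay far from protein-coding TSSs and had a lower median width than other distal peaks. Their median width was 326.5 bp, with a 10th percentile of 205.8 bp and a 90th of 848.5 bp, and 46 of all isolated peaks were narrower than 200 bp. Other distal peaks had a median of 380 bp. Low medians were not particular to isolated peaks, with 334.5 bp at a smaller gap of 25 to 50 kb and 328 bp at 50 to 100 kb, while the 82 distal peaks beyond 200 kb had 399.5 bp. The medians per autosome averaged 318.9 ± 48.5 bp and 383.8 ± 24.9 bp (SD over 19 autosomes), with the isolated peaks narrower on 17, as a description only. Chromosomes 1 and 14 were the exceptions, and on chromosome 14 the isolated median of 451.5 bp exceeded 330 bp for other peaks.

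The median distance to a protein-coding TSS was 266618 bp for isolated and 27388 bp for other distal peaks, and on the log10 scale the means per autosome were 5.28 ± 0.25 and 4.48 ± 0.14, farther on 19 of 19 autosomes. As most protein-coding TSSs carry a peak, this distance follows in large part from the rule and is given with no test. No protein-coding TSS was within 100 kb of 421 of the 540 (78.0%, Wilson 95% interval 74.3 to 81.2%), as against 24.4% of other distal peaks. A distance over 500 kb was found for 162 (30.0%) and for 5.03% of the others. The farthest lay 2605832 bp from the TSS of Pcdh9.

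Distal members held more repeats than the whole of the other distal peaks. The share of bases soft-masked as repeats in the reference averaged 38.0 ± 8.21% in isolated and 22.6 ± 2.16% in other distal peaks, a difference of 15.4 ± 7.92 points that was positive on 18 of 19 autosomes (adjusted permutation p = 5.2e-05). Chromosome 18 was the exception. Peaks with a smaller gap just below the limit were closer to the isolated ones, with mean repeat shares of 29.4% at 25 to 50 kb and 33.2% at 50 to 100 kb, and against all peaks of 25 to 100 kb the difference was 8.14 points (adjusted permutation p = 0.00247). The averages per autosome ran from 20.4 to 47.8% for isolated and from 17.8 to 26.0% for other distal peaks. Of the 540 peaks, 70 (13.0%, Wilson 95% interval 10.4 to 16.1%) were masked over more than 90% of their bases against 3.32% of other distal peaks, or 6.69% of those with a smaller gap of 25 to 50 kb and 8.87% at 50 to 100 kb, and 80 (14.8%) held no repeat against 17.9%. Without the peaks masked over 90%, which was added after the data had been seen, the difference was 9.96 ± 7.74 points, given as a description because the peaks were left out by the measure itself. Intergenic isolated peaks had a mean of 44.7% and intronic ones 27.1%.

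Part of this sequence occurs many times in the genome. The central 50 bases of a peak occurred more than once on the autosomes, on either strand and without mismatch, for 68 of the 540 isolated distal peaks (12.6%) and for 4.07% of other distal peaks. Among peaks masked over 90% it was 28 of 70 isolated and 1143 of 2919 other distal peaks. For 31 isolated distal peaks there were more than 10 copies, and the highest number was 6754, for a peak of 891 bp on chromosome 16 near Gbe1. How the authors treated reads that fit several places is not given in the sources used here, and the part of such reads in these peaks was not tested. Among distal peaks whose centre had 1 copy, the mean repeat share was 33.8% in 472 isolated and 20.9% in 84318 other peaks.

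The peaks were compared with windows of the same width centred 5 kb away to either side, still within the peak-free stretch. GC content was 46.7 ± 1.56% in isolated distal peaks and 39.1 ± 1.16% in the windows, a difference of 7.52 ± 1.74 points that was positive on 19 of 19 autosomes (adjusted permutation p = 5.2e-05). Repeat shares were 38.0 ± 8.21 and 39.2 ± 4.85%, which did not pass (adjusted permutation p = 0.591). In other distal peaks the profile of repeats dipped, from 31.6% at 4 to 5 kb to 22.7% within 100 bp of the centre. In isolated distal peaks the corresponding values were 40.4 and 40.1%.

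**Figure D4:**
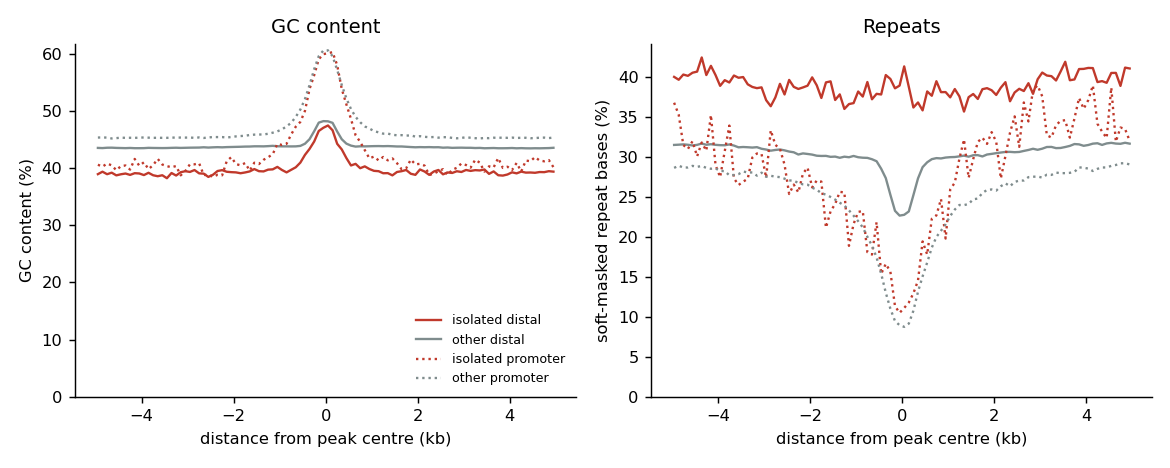
GC content (left) and share of repeat-masked bases (right) in bins of 100 bp by distance from the peak centre, for isolated (red) and other (grey) peaks, distal as solid and promoter as dotted lines. GC content rose at the centre in all 4 sets, and repeats within 100 bp of the centre were 40.1% in isolated distal peaks against 40.4% at 4 to 5 kb, while the other 3 sets had a clear dip there.

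Compared with other distal peaks, isolated ones were slightly poorer in GC. The means were 46.7 ± 1.56 and 47.8 ± 1.01%, a difference of -1.15 ± 1.86 points (adjusted permutation p = 0.0277). The call depended on the comparison. Against other distal peaks within 1 Mb of an isolated peak the difference was -0.361 points (adjusted permutation p = 0.371), and against peaks with a smaller gap of 25 to 100 kb it was 0.380 points (adjusted permutation p = 0.387). The CpG ratio of distal peaks was 0.223 ± 0.0514 against 0.239 ± 0.0142 and did not pass (adjusted permutation p = 0.376). GC extremes among all members were 24.5% in an intron of Spag16 and 78.1% at the Gm40864 TSS on chromosome 12.

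CTCF matches were rarer in isolated than in other distal peaks but more frequent than in the windows beside them. The CTCF consensus, of 12 bases with up to 1 mismatch, was searched on both strands in the central 300 bp, or in the whole peak where it was narrower. It occurred in 11.1% of all autosomal peaks. It was found in 37 of the 540 isolated distal peaks (6.85%, Wilson 95% interval 5.01 to 9.30%) and in 12.1% of other distal peaks. Averages over autosomes were 6.83 ± 6.36% and 12.2 ± 1.83% (adjusted permutation p = 0.00725, lower on 16 of 19). With 1 more mismatch allowed (adjusted permutation p = 0.141) or at an isolation distance of 150 kb (adjusted permutation p = 0.801) the difference did not pass. Searching 300 bp around every centre, also beyond the edges of narrow peaks, found a match in 7.96% of isolated and 12.9% of other distal peaks. The windows 5 kb away held a match in 1.15 ± 1.67% (adjusted permutation p = 0.00315). These windows also had a lower GC content, as given above, and the part of base composition in this difference was not tested. Of the 37 matches, 16 lay in introns and 20 between genes, and their peaks had a mean repeat share of 20.7% against 40.5% in the isolated distal peaks without a match. None of the 70 peaks masked over 90% held one, and 3.63% of other distal peaks of that class did. The most isolated peak of all, on chromosome 7 near Scgb1b29 with a smaller gap of 799561 bp, had a match with 1 mismatch.

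Among motifs of pluripotency factors, only the KLF motif differed past the threshold between isolated and other distal peaks. The composite OCT4::SOX2 motif, with up to 2 mismatches over 15 bases, occurred in 3 of 540 isolated distal peaks (0.556%, Wilson 95% interval 0.189 to 1.62%) and in 0.554% of other distal peaks (adjusted permutation p = 0.677), and in 0.478% of all autosomal peaks. These 3 lay on chromosome 7 near Vmn2r45, on chromosome 1 near Tmem182 and in an intron of Erbb4, with smaller gaps of 126111, 125316 and 114581 bp.

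Shorter motifs were matched without mismatch on both strands. The OCT motif ATTTGCAT, in 1.72% of all peaks, was found in 9 isolated distal peaks (adjusted permutation p = 0.941). The SOX motif CCNTTGTN, where the N positions are A or T and C or T, is held by 7.45% of all peaks and was found in 42 (adjusted permutation p = 0.521). The ESRRB motif TCAAGGTCA, in 1.72% of all peaks, was found in 9 (adjusted permutation p = 0.941). The KLF motif GGGNGNGGC, with C or T and then G or T at the N positions, occurs in 7.89% of all peaks. It was found in 15 isolated distal peaks, with averages of 3.21 ± 4.07% against 5.97 ± 1.25% (adjusted permutation p = 0.0169). Against other distal peaks within 1 Mb this was lost (adjusted permutation p = 0.0941), as it was against peaks with a smaller gap of 25 to 100 kb (adjusted permutation p = 0.568). As a description, KLF was found in 2.78% of isolated distal peaks and 0.648% of the windows 5 kb away. The OCT motif went the other way, with 1.67% and 5.46%. SOX was found in 7.78% and 6.76%, ESRRB in 1.67% and 0.741%, and OCT4::SOX2 in 0.556% and 0.278%.

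The same features were followed across gap classes, as a description. The promoter share was 22.7% for a smaller gap of up to 1 kb, 18.8% at 1 to 5 kb, 22.2% at 5 to 25 kb, 19.1% at 25 to 50 kb, 15.1% at 50 to 100 kb, 14.1% at 100 to 150 kb, 15.1% at 150 to 200 kb and 13.7% beyond. The mean repeat share of distal peaks was 21.9, 20.3, 23.8, 29.4, 33.2, 39.3, 37.5 and 41.1% in the same classes. The share of distal peaks with a CTCF match was 8.59, 13.9, 12.7, 11.6, 9.22, 5.69, 8.87 and 8.54%, so that peaks less than 1 kb apart held about as few as those beyond 150 kb. The repeat share thus lay above that of closely spaced peaks well below the limit of 100 kb, while the CTCF share did not follow the gap in 1 direction.

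**Figure D5:**
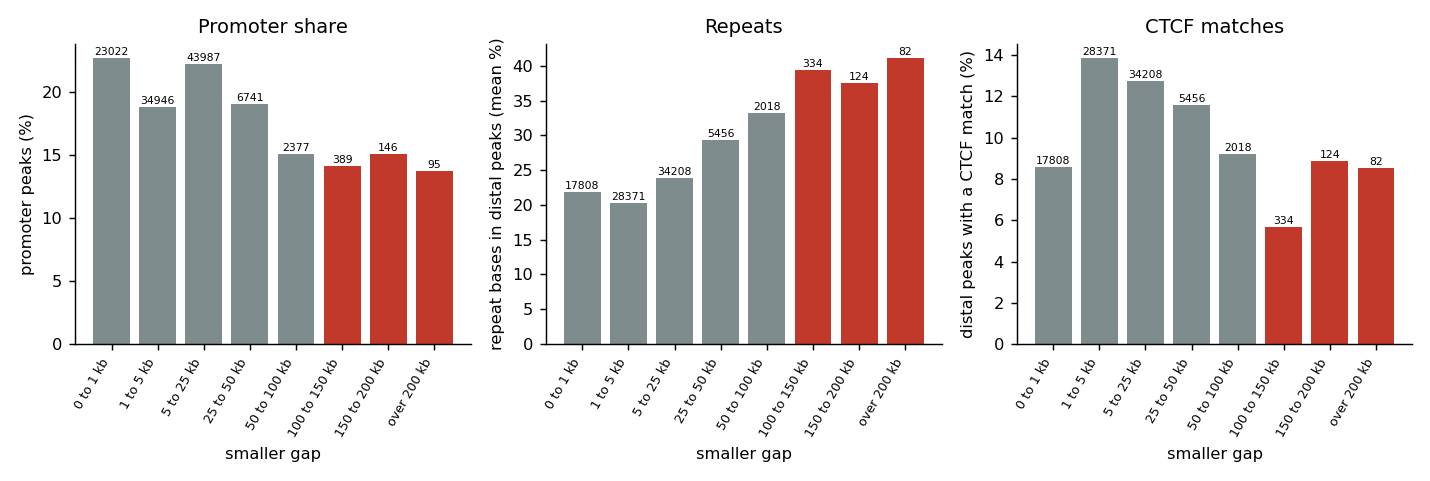
Promoter share of all autosomal peaks (left), mean repeat share of distal peaks (middle) and share of distal peaks with a CTCF match (right) by the smaller gap to the next peak, with the number of peaks above each bar and isolated peaks in red. The promoter share was highest at 22.7% and lowest at 13.7%, in the first and last class, and the CTCF share was 8.59% in the first class, 5.69% at 100 to 150 kb and 8.54% in the last.

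The 10 most isolated distal peaks lay in long stretches without other peaks. Of these, 5 were on chromosome 14 and 3 on chromosome 16, 8 were intergenic, 6 were masked over more than 50% of their bases and 4 had a centre with more than 1 copy. After the peak near Scgb1b29, the next was a peak of 772 bp on chromosome 14, 906395 bp from the TSS of Pcdh9, with a smaller gap of 673447 bp. A peak of 215 bp with 28.8% GC lay on chromosome 4 near Skint6 of the Skint family of skin immunity genes, with 571277 bp. On chromosome 16 the peaks near Tmprss15, the enteropeptidase gene, and near Cadm2, an adhesion gene of synapses, had smaller gaps of 466724 and 420584 bp and repeat shares of 88.1 and 98.0%. The others had gaps of 342759 to 363246 bp and were nearest to Pcdh17, Pcdh9, Cacna2d3, 2310061N02Rik and Pcdh20.

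Most host genes of intronic members were long. Of the 151 intronic peaks, 116 lay in 96 protein-coding genes with a median length of 558444 bp, of which 54 exceeded 500 kb and 6 were under 100 kb, the shortest being Gm8906 with 4733 bp. The rule favours length here, because a host gene with a peak at its TSS must extend more than 100 kb from that peak to hold an isolated one. Among all 218 autosomal protein-coding genes over 500 kb, 24.8% held an isolated peak in an intron, as did 20 of the 55 genes over 1 Mb. Hdac9, a histone deacetylase gene of 869516 bp, and Lrp1b, an LDL receptor family gene of 2058379 bp, held 3 each among 8 and 28 peaks. The 17 genes with 2 included, in alphabetical order, Agbl1, Babam2 and Erbb4. A peak at a TSS was present for 75 of the 96 genes, and for 15046 of all 20807 autosomal protein-coding genes. At Hdac9 the peak at the TSS was itself isolated.

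Lists of genes put numbers to the kinds of gene involved. Of 64 genes of neural adhesion and synapse, 3 (4.69%) had an isolated promoter peak, namely Cntnap5a, Opcml and Lsamp, and 15 (23.4%) had an isolated intronic peak, among them Cntnap2, Lrp1b, Ctnna2, Csmd1, Dscam, Robo1 and Dcc. Of all 20807 autosomal protein-coding genes, 0.250% had the first and 0.461% the second. The promoter share was not computed for long genes alone, so 4.69% and 0.250% compare genes of unlike length. The genes of this list had a median length of 706200 bp and 41 of the 64 exceeded 500 kb, and 13 of its 15 host genes were of that length. So 13 of the 41 list genes over 500 kb held an isolated intronic peak. Of all 218 autosomal protein-coding genes over 500 kb, 54 did (24.8%). Of 21 cadherins and protocadherins, Pcdh9 had an isolated promoter peak, and Cdh13, Pcdh7, Pcdh9 and Pcdh15 had intronic ones. A length over 500 kb was found for 3 of these 4 host genes and for 5 of the 21. Of 49 genes of developmental transcription factors, Zfhx3 and Zfpm2 had an isolated intronic peak and none had an isolated promoter. The 16 pluripotency genes, with a median length of 12812 bp, had neither. A peak at a TSS was found for 56 of the 64 neural genes, 20 of the 21 cadherins, 46 of the 49 transcription factors and 15 of the 16 pluripotency genes, and for 15046 of all 20807 genes.

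The genes in the stretches around isolated peaks were counted, as a description. The stretches around isolated peaks held TSSs of 777 protein-coding genes, 3.73% of those on the autosomes, and a peak lay within 1 kb of a TSS for 136 of them (17.5%). This was so for 74.4% of the other autosomal protein-coding genes, a difference set by the rule, since the stretches hold no peaks but the isolated ones. Vomeronasal receptors of the Vmn1r family made up 83 of the 777, which is 39.9% of the 208 autosomal family members, and 1 of the 83 had a peak at a TSS, as did 12 of all 208. Olfactory receptors (Olfr) made up 137 of the 777, or 12.1% of 1128, and none had a peak there, while 81 of the 1128 did. Of 22 Ugt genes 8 (36.4%) lay in the stretches, of 102 Cyp genes 13 (12.7%), of 119 Vmn2r genes 15 (12.6%) and of 11 Skint genes 3. Of 60 Serpin genes 4 did, as did 1 of 28 Cdh and 2 of 67 Pcdh genes. Of 388 Zfp genes 2 (0.515%) were found there, below the 3.73% over all genes, and none of 15 Taar and 42 Defb genes, families too small to differ clearly from that share.

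The longest runs of consecutive isolated peaks held 7 peaks each. One, on chromosome 14, spanned 1.96 Mb (89324997 to 91280029) in the gene desert between Pcdh20 and Pcdh9. It held no promoter peak, widths of 181 to 902 bp, GC contents of 41.2 to 64.5% and repeat shares of 4.66 to 100%. The centres of 2 of its 7 peaks had more than 1 copy on the autosomes, up to 481. The CTCF match of the peak at 90433072 to 90433606 shown above lay in this run, with gaps of 259716 and 540460 bp beside it. The other run, on chromosome 12, spanned 1.16 Mb (22030216 to 23190019) within the duplicated stretch described above. It held 5 promoter peaks of Gm4425, Gm49251, Gm40864, Gm48037 and Gm47385, no CTCF match, and GC contents of 49.8 to 78.1%. The centres of 5 of its 7 peaks had 2 copies on the autosomes.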

How the data were processed

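According to the study's methods, the authors aligned reads to GRCm38 with STAR 2.6.1c, removed duplicates with Picard, detected peaks with MACS2 2.1.1.20160309 in paired-end mode and combined those of dox-treated OCT4-AID experiments with BEDTools. Whether peaks were made per library or on pooled replicates is not given in the sources used here. The deposited values are positions in bp, of the unit type other, with no score, count or signal. The methods describe removal of regions above 5 kb, of those overlapping peaks of input DNA and of blacklisted regions. As 11 regions above 5 kb remain, none of them isolated, the list may precede this filter, so that isolated peaks in repeats or multi-copy sequence may include regions it would remove, which was not tested. Of the isolated peaks, 8 have unknown bases within 100 kb.

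Positions (1-based) were compared with the sequence and repeat masking of GRCm38.p6 and with GENCODE M21 using Python 3.11.15, numpy 2.4.6, pandas 2.3.3 and numba 0.67.0. Chromosome lengths held every peak. The centre base set the class of a peak, with promoters (at most 1 kb from a TSS) taking precedence over exons, and exons over introns. Sign-flip permutation tests used 100000 resamples, or all sign patterns where fewer, over autosomes with at least 5 members. The smallest p these resamples can give is 1e-05. The scripts were tested on simulated data. Alternatives were another isolation distance, promoter distance, comparison set, window or mismatch limit, and leaving out narrow peaks or 1 autosome. Peaks named are the 10 most isolated of each kind, the 5 widest, those with OCT4::SOX2, those nearest the limit, the longest runs, the 5 genes with most intronic members and genes of the lists. Perfect CTCF matches, exceptional sites and copy numbers were added after values were seen. The members, lists and tests were chosen with earlier results of these data known.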

Additional observations from a re-analysis of the deposited data

How the results depend on the processing

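No paired analysis was possible because the merged list carries no replicate values. Of 251 recalculated values under other settings, 204 kept their direction and side of the threshold, and of 429 that left out 1 autosome, 400 did. The 251 include the number and median width of isolated peaks, which have no p-value and were judged by the size of their change alone. Both counts also include features that the rule favours, so they do not measure stability beyond it. The differences below are isolated minus other peaks unless stated, and the causes were not tested. An isolation distance of 50 kb gave 3007 peaks and 150 kb gave 241. At 150 kb the tests on promoter peaks rest on 2 autosomes.

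Calls were lost as follows. At 150 kb the promoter share difference was -6.48 points, the CTCF share -1.61, the CpG ratio of all peaks -0.0303 and the GC content of distal peaks -1.67. With 1 more mismatch the CTCF share was -4.30. Against other peaks within 1 Mb of an isolated peak, the GC content was -0.864 for all and -0.361 for distal peaks, the CpG ratio of all peaks -0.0343, the KLF share -1.96 and the exon share -1.69. Against peaks with a smaller gap of 25 to 100 kb, the GC content of all peaks was -0.343, the CpG ratio of all peaks -0.0234 and the KLF share -0.762. The exon share was -2.48 without peaks masked over 90%.

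Calls were gained as follows. At 50 kb the CpG ratio of distal peaks was -0.0159, the repeat share of distal peaks minus their windows -4.91, the log10 gene length 0.48 and the number of other genes -2.92. Without peaks masked over 90%, the CpG ratio of distal peaks was -0.0295. The repeats minus windows were then -7.36, a direction that the filter fixes because the windows were not filtered. With every autosome that held a member, log10 gene length was 0.64 and other genes -3.48. The isolation rule favours few other genes and long genes, so these calls carry no support. The OCT4::SOX2 share was -0.0671 with 1 fewer mismatch and -0.518 at 150 kb, where no isolated peak held the motif, so that these p-values carry no information on a rare motif.

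Directions turned as follows, and no value past the threshold turned to the opposite call. At 150 kb, promoter peaks gave 0.0702 for the CpG ratio and 4.43 for GC content, and the ESRRB share was 0.348. At 50 kb the CpG ratio of promoter peaks was 0.00877 and the OCT4::SOX2 share 0.0814. Against gaps of 25 to 100 kb, distal GC content was 0.380, distal CpG ratio 0.00748, the exon share 0.188, the ESRRB share 0.124 and the OCT share -0.277. Within 1 Mb the OCT share was -0.0447. A promoter distance of 2500 bp gave 0.192 for promoter GC content and -0.372 for OCT, and 500 bp gave -2.10 for repeats of promoter peaks. Promoter GC content was 0.0845 without peaks under 200 bp. Searching the whole peak gave -0.118 for OCT, and 300 bp around the centre gave 0.797 for ESRRB. Without peaks masked over 90%, ESRRB was 0.0716, OCT -0.0377 and promoter repeats -2.10. Windows 20 kb away gave 0.543 for repeats.

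Leaving out 1 autosome changed calls or directions in 7 results, over these ranges. The exon share ran from -3.28 to -2.29, the CpG ratio of all peaks from -0.0526 to -0.0378 (lost without chromosome 7 or 15), distal GC content from -1.49 to -1.01 (lost without chromosome 7, 8 or 15), promoter GC content from -1.29 to 1.01, the OCT4::SOX2 share from -0.402 to -0.136, where the p-value passed without chromosome 1, the OCT share from -0.316 to 0.199 and the ESRRB share from -0.685 to 0.0120.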
